A study of Mus musculus with 10 samples.

Results

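The comparison described here is between mouse marrow cells carrying mutant 2 of ASXL2 and the same kind of cells carrying an empty vector. Its members are 4 of the 10 libraries of the series: 2 libraries whose deposited names give mutant 2 and 2 whose names give the empty vector, with 1 library of each in batch 1 and 1 in batch 2. The starting cells were lineage-negative, Kit-positive bone marrow cells, grown with IL3, IL6 and SCF, and the GFP-positive cells were sorted and expanded before polyA RNA was taken. The other 6 libraries carried full-length ASXL2, mutant 1 or mutant 3 (2 libraries each) and entered the same fit. All 5 groups share the vector, the sort and the culture, and the labels do not give the mutations, the promoter of the vector, or the age or strain of the mice. Nothing in the labels says whether the paired libraries of a construct were grown from separate cultures; the p-values therefore rest on library-to-library spread that may be technical.

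ASXL2 is a chromatin scaffold protein of the Additional sex combs family. It binds BAP1, a deubiquitinase that removes ubiquitin from histone H2A, a mark that Polycomb complexes deposit. ASXL2 is needed for normal blood stem cell function, and it is recurrently mutated in acute myeloid leukaemia with the RUNX1-RUNX1T1 fusion, where the mutations mostly truncate the protein.

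Labels and deposited names disagree for 4 of the 6 mutant libraries, and both mutant 2 libraries are among them. The batch 1 library named mutant 2 is labelled mutant 1 of batch 2, and the batch 2 library named mutant 2 is labelled mutant 3 of batch 1. The libraries labelled mutant 2 are named mutant 3 of batch 1 and mutant 1 of batch 2. On the first principal component of log2 CPM (counts scaled to a common library size), with 41.2% of the variance, 10 of 10 libraries lay on the side of the batch in their name and 8 of 10 on the side of the batch in their label. That check bears on the batch and says nothing of which mutant a library carries. Every result below takes construct and batch from the names, and where the labels were used instead the value is given.

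Total estimated counts were 52422686 and 71822767 in the empty vector libraries of batches 1 and 2, and 61081220 and 79320702 in the mutant 2 libraries, which spans the range of all 10. The cells were rich in mast cell transcripts in all 4 libraries. Carboxypeptidase Cpa3, a mast cell granule protease, lay between 19385 and 27096 TPM (a length-scaled share of transcripts) over the 10 libraries, and the IgE receptor chain Fcer1a between 5760 and 8224 TPM. Kit, the SCF receptor that marked the starting cells, lay between 729 and 1050 TPM. The progenitor receptor Flt3 reached at most 0.0277 TPM in any library, so this marker of early progenitors was near 0 although the starting population is named for a progenitor phenotype. The 33 mast cell and basophil markers summed to 81902 and 83903 TPM with the empty vector and to 79936 and 74425 TPM with mutant 2.

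Asxl2 was the first gene examined, because it reads the construct. Asxl2 (ENSMUSG00000037486, mm10 chr12:3426857-3506852) stood at 107 and 111 CPM in the empty vector libraries of batches 1 and 2, and at 1892 and 916 CPM in the mutant 2 libraries. Both mutant 2 libraries lay far above both empty vector libraries, and the batch 1 library was the highest of the 10. The rise was 12-fold (log2 3.58, SE 0.26, adjusted p = 0.00196, edgeR quasi-likelihood test with Benjamini-Hochberg adjustment). In TPM the excess sat in 2 of the 7 annotated Asxl2 transcripts: ENSMUST00000144247 went from 9.55 and 8.72 TPM to 668 and 238 TPM, and ENSMUST00000153102 from 6.37 and 7.63 TPM to 361 and 141 TPM. Another transcript, ENSMUST00000111215, did not take part and read 10.2 and 8.31 TPM with the empty vector and 11.4 and 7.10 TPM with mutant 2.

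Of 11 tested genes of the ASXL and BAP1 list, which holds the partners of ASXL2, edgeR called Asxl2 alone, with 2 at an unadjusted p under 0.05, and DESeq2 called Asxl2 and Hcfc1. The paralogue Asxl1 read 107 and 103 CPM with the empty vector and 95.2 and 98.0 CPM with mutant 2 (log2 -0.12, SE 0.06, adjusted p = 0.25). Bap1, the enzyme itself, read 77.1 and 79.0 CPM against 70.5 and 81.8 CPM (log2 -0.04, adjusted p = 0.76). The BAP1 cofactor Hcfc1 had the next smallest p of the list, at 212 and 220 CPM against 178 and 200 CPM (log2 -0.19, adjusted p = 0.0899 with edgeR and 0.0497 with DESeq2).

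**Figure D1:**
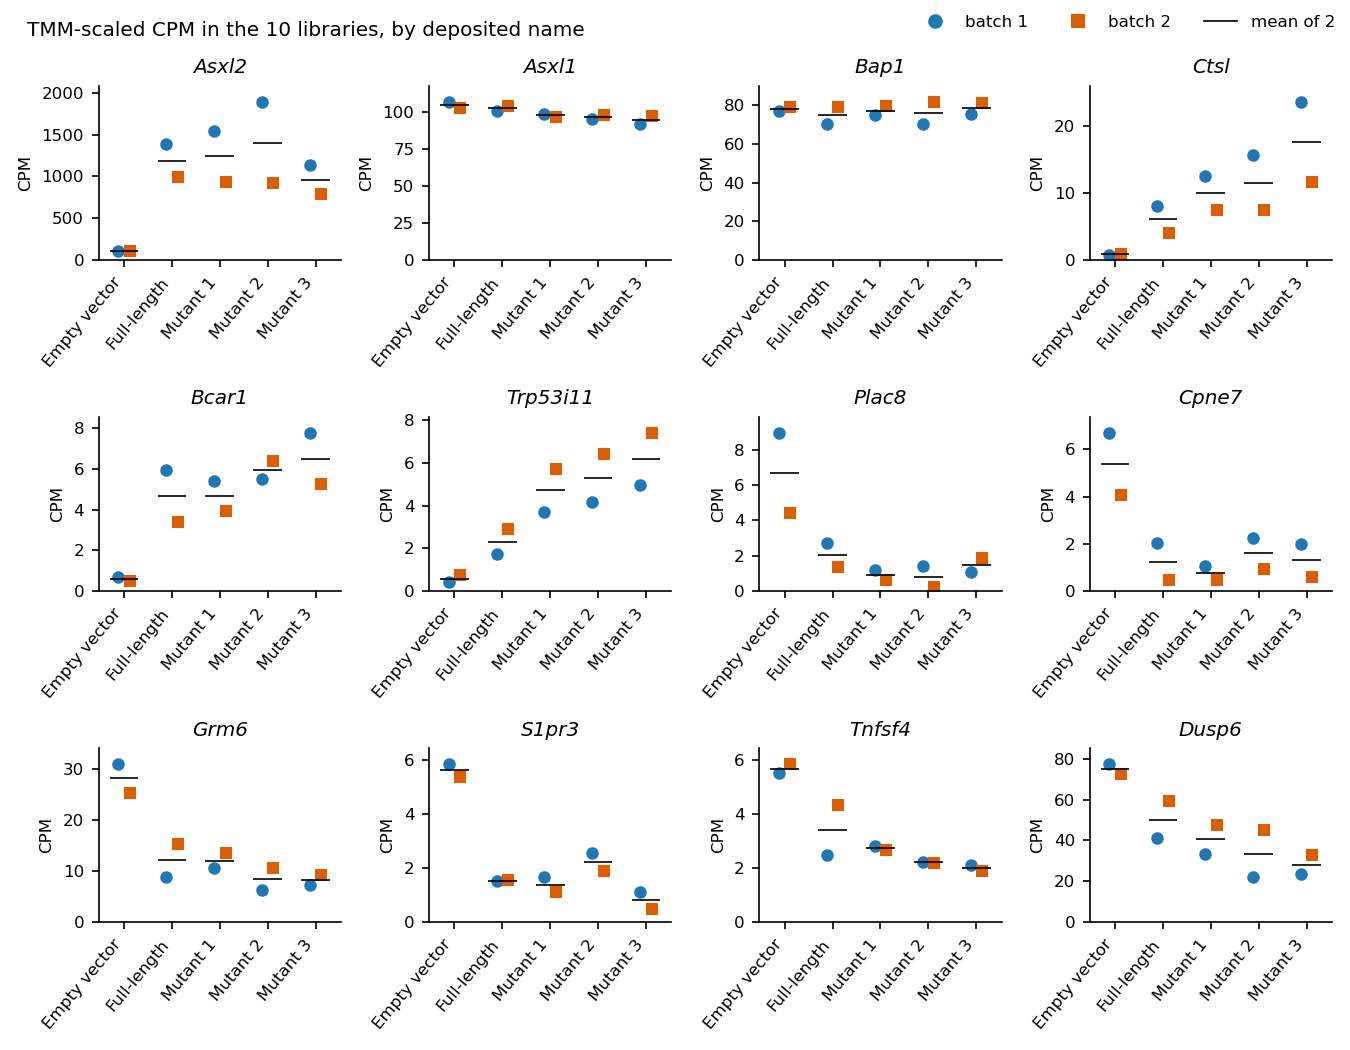
TMM-scaled CPM (y axis, linear, from 0) of 12 genes in the 10 libraries, grouped by construct (x axis). Circles are batch 1, squares batch 2, and the line is the mean of the 2 libraries. Asxl2 is far above the empty vector in each construct group, Asxl1 and Bap1 were not called, the 3 risers Ctsl, Bcar1 and Trp53i11 lie near 0 with the empty vector, and the 6 fallers are highest there.

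Across the genome, 1225 of 17810 tested genes differed between mutant 2 and the empty vector at an adjusted p under 0.05, which is 6.88%. Of these, 856 were higher with mutant 2 (4.81% of genes tested) and 369 lower (2.07%). These 2 shares are the background against which each list count below is given. The rises were the larger changes: the median called gene rose by 0.95 on the log2 scale where it rose, and the called falls had a median of -0.36. At least 2-fold changes numbered 399 up and 44 down. The median log2 change over all genes tested was -0.0034. Within the batches, each 1 library against 1, no called gene moved in opposite directions, and 4 had a change of exactly 0 in a batch.

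The number of calls rests on the batch term and on the names. Without the batch term, 26 genes were called, and with construct and batch from the labels 49, of which 48 were also among the 1225. Neither library named mutant 2 stands for mutant 2 in the fit by the labels, so that count compares other libraries with the empty vector. DESeq2 with the same design called 1058 higher and 743 lower. Leaving out the batch 1 empty vector library left 433 calls, and leaving out the batch 2 empty vector library gave 1875, split into 908 higher and 967 lower. Without the mutant 2 library of batch 1 there were 656 calls, without that of batch 2 there were 339, and without the mutant 1 library of batch 1 or batch 2 there were 718 or 709.

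**Figure D2:**
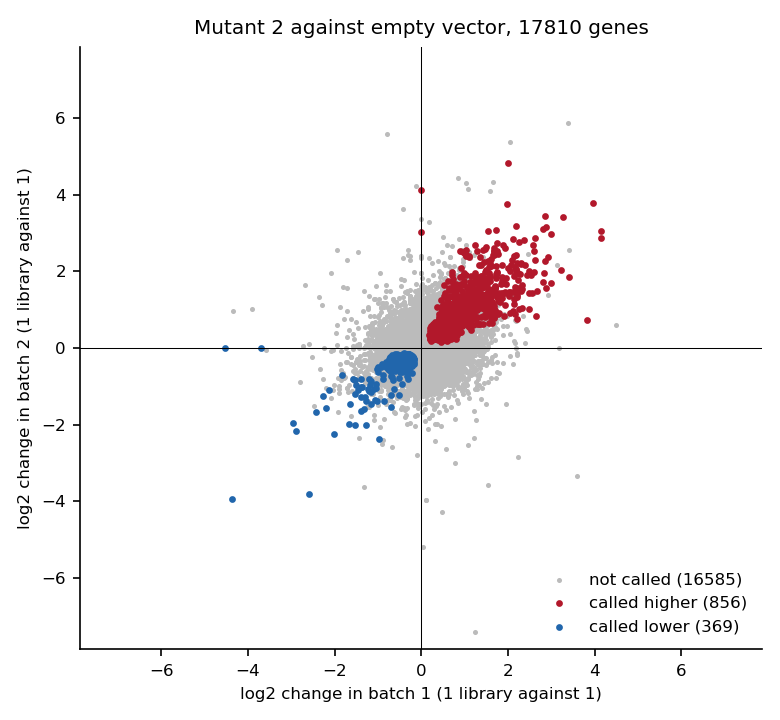
Log2 change of mutant 2 against the empty vector in batch 1 (x axis) and batch 2 (y axis) for the 17810 tested genes, each from 1 library against 1 as log2(CPM + 0.1). Red points are the 856 genes called higher, blue the 369 called lower and grey the rest; the called genes lie in the upper right and lower left of the plot or on an axis.

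The 12 largest rises were ranked by fold among genes with at least 5 mean CPM in the higher group, so genes low with the empty vector could enter. Ctsl, the lysosomal protease cathepsin L (chr13:64359337-64370890), read 0.791 and 0.934 CPM with the empty vector and 15.7 and 7.41 CPM with mutant 2, a 12.2-fold rise (log2 3.60, SE 0.28, adjusted p = 0.000602). Bcar1, an adaptor of focal adhesions also known as p130Cas (chr8:111710474-111743809), went from 0.678 and 0.496 CPM to 5.52 and 6.39 CPM (log2 3.38, SE 0.26). Trp53i11, a p53-induced gene, went from 0.433 and 0.730 CPM to 4.17 and 6.44 CPM (log2 3.19, SE 0.16). In each of these 3 genes both mutant 2 libraries lay above both empty vector libraries. The named genes were picked by their changes in these same libraries, so such separation, here and below, is no added evidence. The share of all genes with such separation was not counted.

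Signalling and metabolic enzymes followed. Adcy6, an adenylyl cyclase that makes cAMP (chr15:98589973-98610076), had the smallest adjusted p of the named genes: it read 3.24 and 3.31 CPM with the empty vector and 20.2 and 19.5 CPM with mutant 2 (log2 2.60, SE 0.11, adjusted p = 4.6e-05). Its 2 batches gave log2 changes of 2.60 and 2.52. Rasgef1a, an exchange factor for small GTPases, went from 1.58 and 0.992 CPM to 9.97 and 6.94 CPM (log2 2.74), and Ube2e2, a ubiquitin-conjugating enzyme, from 0.904 and 0.452 CPM to 6.98 and 4.69 CPM (log2 3.15). The neuronal enolase Eno2, a glycolytic enzyme, went from 1.86 and 1.42 CPM to 14 and 7.28 CPM (log2 2.63). Slain1, a microtubule-associated protein, rose by log2 2.57, Sel1l3 by 2.54, Ndrg2 by 2.38 and Sgce, a sarcoglycan, by 2.34. Of the 12 largest rises, Asxl2 included, 11 stayed called when any 1 of the 10 libraries was left out. The exception was Sel1l3, which was lost without the empty vector library of batch 1 or either library of mutants 1 and 2.

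The falls were smaller and fewer of them were stable. Plac8, a small cysteine-rich protein of myeloid cells, read 8.94 and 4.44 CPM with the empty vector and 1.40 and 0.223 CPM with mutant 2 (log2 -3.18, SE 0.68, adjusted p = 0.0463). Cpne7, a calcium-dependent phospholipid-binding copine, went from 6.70 and 4.07 CPM to 2.25 and 0.929 CPM (log2 -1.88, SE 0.30). Grm6, a metabotropic glutamate receptor, went from 31.0 and 25.3 CPM to 6.33 and 10.5 CPM (log2 -1.79, SE 0.25). In these 3 genes each mutant 2 library lay below both empty vector libraries.

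The other 9 named falls differ in what they encode. S1pr3, a sphingosine 1-phosphate receptor, fell from 5.88 and 5.39 CPM to 2.57 and 1.88 CPM (log2 -1.36), and the TNF family ligand Tnfsf4 from 5.52 and 5.87 CPM to 2.24 and 2.20 CPM (log2 -1.36). Dusp6, the phosphatase that switches off ERK, fell from 77.6 and 72.8 CPM to 21.9 and 44.9 CPM (log2 -1.25, adjusted p = 0.0399). Cdkn2a, the locus of the Ink4a and Arf tumour suppressors, fell from 19.0 and 31.6 CPM to 6.60 and 16.1 CPM (log2 -1.24, SE 0.17, adjusted p = 0.00574). Nlrc3, a NOD-like receptor, fell from 87.6 and 79.1 CPM to 29.4 and 44.8 CPM (log2 -1.19, adjusted p = 0.00957). The sialomucin Podxl (log2 -1.16), the sphingomyelin synthase Sgms2 (log2 -1.17), the SLAM adaptor Sh2d1b1 (log2 -1.12) and Tram2 (log2 -1.23) completed the 12. Cdkn2a and Nlrc3 stayed called without any 1 library, and the other 10 were each lost without at least 1. The call of Plac8 was lost without either empty vector library, either mutant 1 library, either full-length library or the mutant 2 library of batch 2. Dusp6 kept its call without the empty vector library of batch 2 or the mutant 2 library of batch 2, and lost it without each of the other 8. Leaving out the mutant 2 library of batch 1 ended the calls of Cpne7, Grm6, S1pr3, Sgms2 and Podxl, and leaving out that of batch 2 those of Cpne7, S1pr3, Tnfsf4, Tram2, Podxl and Sh2d1b1. Podxl, Sgms2 and Sh2d1b1 were also lost without either empty vector library, Tnfsf4 without that of batch 1, S1pr3 without that of batch 2, and Sgms2 and Sh2d1b1 without either mutant 3 library.

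Genes of glycolysis and the hypoxia response were the list with the highest median. Of its 34 tested members, 8 rose and 0 fell, beside 4.81% of all genes called higher, and 32 of 34 lay above the empty vector in both batches, beside 31.2% of all genes. The list median was 0.75 on the log2 scale, with 0.49 in batch 1 and 0.93 in batch 2. The bulk RNA of a culture cannot tell apart fewer cells of a type from less RNA per cell, here or in any list below. The 8 that rose cover glucose uptake, middle and last steps of glycolysis, and the hypoxia response genes Ndrg1 and Ankrd37. Slc2a1, the glucose transporter GLUT1, read 115 and 105 CPM with the empty vector and 161 and 207 CPM with mutant 2 (log2 0.74, SE 0.12). Pfkp, a phosphofructokinase, went from 288 and 241 CPM to 433 and 448 CPM (log2 0.74, SE 0.12), and its muscle form Pfkm from 25.6 and 23.9 CPM to 36.1 and 32.1 CPM (log2 0.46). In both phosphofructokinases and in Slc2a1, named because they were called, the libraries of the 2 groups did not overlap.

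Aldolase Aldoa went from 1160 and 875 CPM to 1580 and 1626 CPM (log2 0.68, adjusted p = 0.0462), and pyruvate kinase Pkm, the last enzyme of the pathway, from 1389 and 897 CPM to 2036 and 1722 CPM (log2 0.76, adjusted p = 0.0438). Ndrg1, a stress gene induced by low oxygen, went from 67.7 and 46.3 CPM to 190 and 116 CPM (log2 1.40). Ankrd37, a target of the hypoxia-inducible factors, went from 2.30 and 0.978 CPM to 6.61 and 6.60 CPM (log2 2.16). The 34 respiratory chain subunits, which carry the oxygen-consuming steps, had a median of -0.12. Below the empty vector in both batches lay 24 of the 34, beside 31.1% of all genes. Of the 34 subunits 0 rose and 1 fell (2.94%, near the 2.07% of all genes): Cox5a (log2 -0.33, adjusted p = 0.0237). That count was 9 without the empty vector library of batch 2, and 0 without that of batch 1 or either mutant 2 library. The count of the glycolysis and hypoxia list fell to 2 without the empty vector library of batch 1 or the mutant 2 library of batch 2. It fell to 4 without the empty vector library of batch 2 or either mutant 1 library. It was 0 without the batch term, 0 by the labels and 24 with DESeq2.

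The promoters of the 8 were searched for ACGTG, the core of the hypoxia response element, on both strands in the 250 bases before each RefSeq start site (GRCm38.p6). It was found in 7 of 13 windows of the called genes (53.8%) and in 5 of the 7 genes with a window, Ndrg1 having none. Overlapping windows of Aldoa share the same match, which was counted in each of them. The core was in 20 of the 32 list genes with a window, called or not, and in 5444 of 32851 windows of all genes (16.6%). ACGTG is contained in the E-box CACGTG, so a match can be either. A match is shown for each of the 5 genes that hold one, to set the letters beside their rises; Pfkm and Ankrd37 hold another match each that is not shown. Each line gives 30 bases on the gene's own strand, 5′ to 3′, with the match in capitals (CACGT is the core on the other strand).
Slc2a1, chr4:119108697-119108726, plus strand: gtcccgccccggACGTGctccccaggcccc
Pfkm, chr15:98092442-98092471, plus strand: attaagtatgccACGTGaagtaagtaattt
Aldoa, chr7:126799363-126799392, minus strand: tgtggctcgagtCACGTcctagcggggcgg
Pkm, chr9:59657140-59657169, plus strand: ctccgatccggtCACGTccgcgccgcagca
Ankrd37, chr8:46000071-46000100, minus strand: cccagcagtACGTGcctagctcggctcgca
A match is a description of the letters, not a binding site. Pfkp and Eno2 rose as well and hold no match in the windows searched.

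Ribosome assembly moved the other way. Of 34 tested genes of ribosome biogenesis and MYC targets, 19 fell and 0 rose, beside 2.07% of all genes called lower, with 32 of 34 below the empty vector in both batches, beside 31.1% of all genes. The falls were small, and larger in batch 1: the list median was -0.32, with -0.44 in batch 1 and -0.22 in batch 2. Utp20, of the small-subunit processome, went from 38.9 and 47.2 CPM to 27.8 and 34.0 CPM (log2 -0.48, SE 0.07, adjusted p = 0.00567). Spermidine synthase Srm went from 140 and 164 CPM to 94.8 and 133 CPM (log2 -0.43), and fibrillarin Fbl, which methylates ribosomal RNA, from 131 and 138 CPM to 90.5 and 114 CPM (log2 -0.40). The RNA helicase Ddx21 went from 217 and 281 CPM to 170 and 228 CPM (log2 -0.33). In Utp20, Srm and Fbl both mutant 2 libraries lay below both empty vector libraries, while in Ddx21 the groups overlapped and mutant 2 was lower within each batch. Cad, which starts pyrimidine synthesis, had the largest fall of the list at log2 -0.67 (adjusted p = 0.0176).

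**Figure D3:**
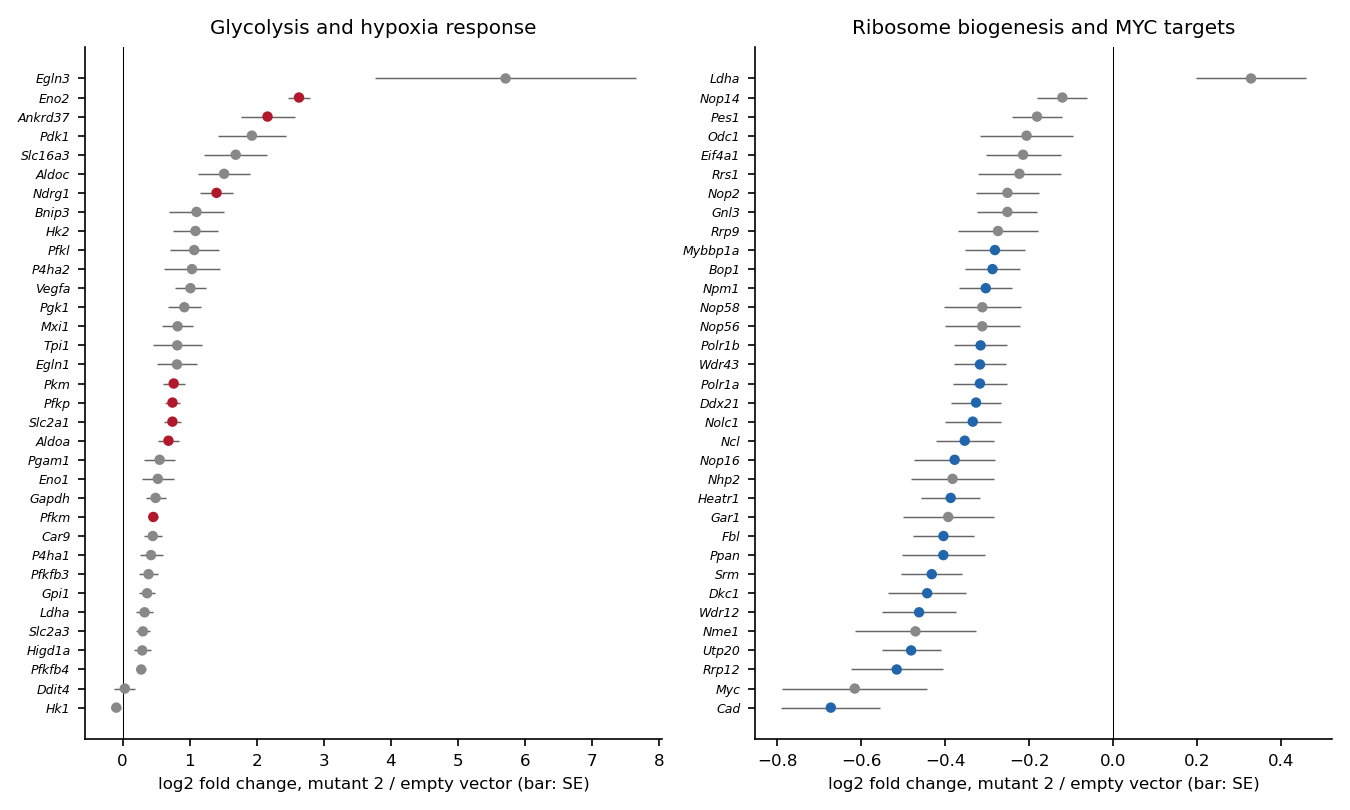
Log2 fold change of mutant 2 against the empty vector (x axis, bar: standard error) for the 34 tested members of the glycolysis and hypoxia list (left) and the 34 of the ribosome biogenesis list (right), ordered by value. Red are the 8 genes called higher, blue the 19 called lower and grey the rest; Egln3 has the highest value and a wide error and was not called.

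The E-box CACGTG, the letters MYC can bind, was in 0 of 16 windows of the 14 fallen ribosome genes with a window, in 4 of the 27 list genes with one, and in 6.02% of all windows. The 16 windows are too few to read 0 as a lack of the motif. Only the 250 bases before each start site were searched, and the fallen genes Bop1, Fbl, Npm1, Rrp12 and Srm had no window. Of 33 structural proteins of the ribosome, 6 were called lower (18.2%, beside 2.07% of all genes) and 0 higher, with a median of -0.18. Rps19 went from 679 and 736 CPM to 546 and 601 CPM (log2 -0.30, adjusted p = 0.0137). Ribosomal protein genes have many near-identical copies, among which kallisto can split reads, so their single values are uncertain. Their count was 0 without the empty vector library of batch 1 or either mutant 2 library, 1 without either mutant 1 library and 3 without the mutant 3 library of batch 1. The ribosome biogenesis count fell to 2 without the empty vector library of batch 1, to 5 without the mutant 2 library of batch 1 and to 1 without that of batch 2, and rose to 29 without the empty vector library of batch 2. Without the batch term and by the labels it was 0.

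In the ATF4 and unfolded protein response list, which covers protein folding in the ER, 5 of 32 fell (15.6%, beside 2.07% of all genes) and 0 rose (median -0.25): the stress sensor Sesn2 (log2 -0.52), the ER chaperones Calr (log2 -0.33) and Pdia4 (log2 -0.25), and Edem1 (log2 -0.25) and Herpud1 (log2 -0.27) of ER-associated degradation. This count ran from 0 without the batch 1 library of the empty vector or of mutant 2 to 12 without the empty vector library of batch 2, and was 1 or 2 without the mutant 2 library of batch 2 or any library of mutants 1 and 3. Genes of S phase had 1 fall among 41, DNA polymerase alpha Pola1 (log2 -0.38, adjusted p = 0.0462), and genes of mitosis 1 among 30, the kinesin Cenpe (log2 -0.50, adjusted p = 0.0358). These shares of 2.44% and 3.33% are near the 2.07% of all genes called lower. Below the empty vector in both batches lay 30 of 41 S phase genes and 6 of 30 mitosis genes, beside 31.1% of all genes. At an unadjusted p under 0.05 (edgeR) were 24 S phase genes and 4 mitosis genes. DESeq2 called 19 S phase genes and 3 mitosis genes, all lower.

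The cell cycle lists differed between the batches. The S phase median was -0.53 in batch 1 and -0.08 in batch 2, and the mitosis median -0.65 and 0.06. Mki67, the proliferation antigen Ki-67, read 322 and 269 CPM with the empty vector and 208 and 246 CPM with mutant 2 (log2 -0.39, adjusted p = 0.128). In the batch 1 pair the cell cycle genes were lower with mutant 2, and in the batch 2 pair the medians were near 0. Without the empty vector library of batch 2, 33 of 41 S phase genes and 29 of 30 mitosis genes were called, and without that of batch 1 none of either list. The ribosome biogenesis median was also lower in batch 1, as was that of the unfolded protein response list (-0.35 and -0.07), and the part of the batch 1 difference in them was not tested. The structural ribosomal proteins had medians of -0.19 in batch 1 and -0.21 in batch 2.

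Among 31 p53 targets 7 fell (22.6%, beside 2.07% of all genes) and 2 rose (6.45%, beside 4.81%). The fallen ones include Ccng1, cyclin G1, from 206 and 231 CPM to 158 and 166 CPM (log2 -0.43, adjusted p = 0.0125), the nuclease Aen (log2 -0.39), the death receptor Tnfrsf10b (log2 -0.54) and Trp53 itself (log2 -0.29, adjusted p = 0.0201). The 2 that rose were Trp53i11, above, and Btg2, an antiproliferative gene, from 5.88 and 1.98 CPM to 13.1 and 3.73 CPM (log2 1.05, adjusted p = 0.00416). In Btg2 the batches differ more than the constructs do, and mutant 2 is higher within each. Of these, Trp53i11 and Btg2 stayed called without any 1 library, while the count of the list fell to 3 without the empty vector library of batch 1 or either mutant 2 library, and to 5 without either mutant 1 library.

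Of 34 Polycomb genes, 6 rose (17.6%, beside 4.81% of all genes) and 0 fell, with a list median of 0.01. Those described here belong to PRC1, the complex that places the ubiquitin that BAP1 removes. Cbx7 went from 28.3 and 18.5 CPM to 57.8 and 34.1 CPM (log2 0.95, SE 0.10, adjusted p = 0.00179). Cbx6 went from 79.8 and 69.3 CPM to 109 and 97.9 CPM (log2 0.47). Pcgf5 (log2 0.62), Cbx2 (log2 0.52) and Rybp (log2 0.36) rose as well. In Cbx7 and Cbx6 both mutant 2 libraries lay above both empty vector libraries. Cbx7 and Cbx6 stayed called without any 1 library, and the count was 2 without the empty vector library of batch 1 or the mutant 2 library of batch 2.

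The list of RXR, PPAR and LXR receptors and their targets gave 3 rises and 2 falls in 20 tested genes. These are 15% and 10%, beside 4.81% and 2.07% of all genes, and Rxra was the only receptor called. Rxra, the common partner of retinoid, PPAR and LXR receptors, rose from 13.8 and 15.7 CPM to 31.0 and 34.5 CPM (log2 1.15, SE 0.10, adjusted p = 0.000549). Its batches gave 1.16 and 1.13, and it stayed called without any 1 library and without the batch term. The LXR target Mylip (log2 0.69) and the fatty acid carrier Fabp5 (log2 0.73) rose, and the PPAR targets Cpt1a, which brings fatty acids into mitochondria (log2 -0.97), and Angptl4 (log2 -0.50) fell. The targets thus moved in both directions. The list count of 5 fell to 3 without the empty vector library of batch 2, and to 1 or 2 without that of batch 1 or any mutant library.

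Mast cell and basophil genes gave 4 rises (12.1%, beside 4.81% of all genes) and 2 falls (6.06%, beside 2.07%) of 33, with a median of 0.01. The histamine-making enzyme Hdc rose from 12.1 and 17.1 CPM to 23.5 and 41.4 CPM (log2 1.12, SE 0.18, adjusted p = 0.0171). The cytokine gene Il13 rose from 2.28 and 3.33 CPM to 5.79 and 7.85 CPM (log2 1.28), and the mast cell receptor Mrgprb2 from 3.07 and 1.44 CPM to 7.72 and 5.51 CPM (log2 1.62). In these 3 the mutant 2 libraries lay above both empty vector libraries. Gzmb, granzyme B, rose from 2595 and 3536 CPM to 4506 and 4734 CPM (log2 0.60), while the leukotriene synthase Ltc4s (log2 -0.47) and the granule proteoglycan Srgn (log2 -0.24) fell. The count was 0 without the empty vector library of batch 1 and 1 without the mutant 2 library of batch 2, 3 without the empty vector library of batch 2, and 2 without the mutant 2 library of batch 1 or either mutant 1 library.

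Secreted signals changed in both directions. Of 21 tested cytokines and chemokines, 5 rose (23.8%, beside 4.81% of all genes) and 3 fell (14.3%, beside 2.07%). The macrophage inflammatory chemokine Ccl3 rose from 2.62 and 3.65 CPM to 7.83 and 9.86 CPM (log2 1.5, SE 0.21, adjusted p = 0.00498), and Ccl9 from 4.14 and 10.8 CPM to 13.4 and 66.5 CPM (log2 2.23, adjusted p = 0.0316). Ccl2, the monocyte attractant, rose from 120 and 116 CPM to 169 and 194 CPM (log2 0.62), and Ccl4 rose by log2 1.65. Il6, which is also a supplement of the medium, fell from 68.7 and 69.9 CPM to 53.5 and 52.3 CPM (log2 -0.39, SE 0.07, adjusted p = 0.0163). Ccl17 (log2 -1.53) and Tnfsf4 fell as well. The list count was 1 without the empty vector library of batch 1, 3 without the mutant 2 library of batch 2, and 5 without the other empty vector library, the other mutant 2 library or either mutant 1 library.

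Growth factor receptors and their feedback regulators gave 4 rises (12.1%, beside 4.81% of all genes) and 5 falls (15.2%, beside 2.07%) of 33. Il6st, the signalling chain gp130 of the IL6 receptor, rose from 4.82 and 2.77 CPM to 12.4 and 8.91 CPM (log2 1.52, SE 0.11, adjusted p = 0.000272) and stayed called without any 1 library. The erythropoietin receptor Epor (log2 0.75), the phosphatase Dusp2 (log2 1.47) and the feedback inhibitor Spry2 (log2 0.59) rose. The falls were Dusp6, above, Rasa2, a GTPase-activating protein for Ras, from 13.5 and 16 CPM to 7.25 and 9.11 CPM (log2 -0.86, adjusted p = 0.0177), Spred1 (log2 -0.31) and Spry1. Spry1 was close to 0 throughout, at 0.697 and 0.715 CPM with the empty vector and 0.0476 and 0.157 CPM with mutant 2. Rasgrp1, which activates Ras, was the other fall (log2 -0.36). The count was 1 without the empty vector library of batch 1, 2 without the mutant 2 library of batch 2, 4 without the mutant 2 library of batch 1 or either mutant 1 library, and 5 without the mutant 3 library of batch 1.

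Adhesion and actin linkage gave 5 rises (13.2%, beside 4.81% of all genes) and 2 falls (5.26%, beside 2.07%) of 38. Besides Bcar1, its kinase partner Src rose from 15.4 and 19.0 CPM to 28.4 and 37.9 CPM (log2 0.94, SE 0.09, adjusted p = 0.000602). Focal adhesion kinase Ptk2 rose from 3.86 and 2.89 CPM to 7.82 and 4.55 CPM (log2 0.82, adjusted p = 0.0438), and alpha-actinin Actn1 from 2.92 and 1.42 CPM to 7.99 and 8.86 CPM (log2 2.03). Bcar1, Src and Ptk2 are known to act in 1 complex at adhesion sites. The 2 chains of the integrin LFA-1 moved apart: Itgb2 rose from 20.1 and 15.1 CPM to 33.3 and 30.6 CPM (log2 0.87, SE 0.08, adjusted p = 0.000663), and Itgal fell from 11.6 and 19.0 CPM to 4.34 and 10.8 CPM (log2 -1.12, SE 0.18, adjusted p = 0.0109). The count was 12 without the empty vector library of batch 2 and 3 without the mutant 2 library of batch 2.

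The lysosome and endosome lists had medians of 0.00 and 0.03. In the lysosome list 5 rose (16.1%, beside 4.81% of all genes) and 2 fell (6.45%, beside 2.07%) of 31. Tfeb, the transcription factor of lysosome formation, rose from 2.20 and 1.05 CPM to 6.45 and 3.60 CPM (log2 1.68, SE 0.23, adjusted p = 0.00417), and the sorting receptor Sort1 from 8.13 and 4.16 CPM to 23.9 and 14.3 CPM (log2 1.65, SE 0.23). Cathepsin B, Ctsb (log2 0.29), and the cholesterol carrier Npc2 (log2 0.32) rose slightly, and the hydrolase Gusb (log2 -0.33) fell. This count was 3 without either mutant 2 library and 4 without the empty vector library of batch 1 or either mutant 1 library. Of 32 genes of endosome recycling, 2 rose (6.25%) and 1 fell (3.1%), near the 4.81% and 2.07% of all genes. Rab11fip5, an effector of the recycling GTPase Rab11, rose from 1.22 and 2.51 CPM to 5.96 and 10.7 CPM (log2 2.16, SE 0.17, adjusted p = 0.000352). Rab31 rose (log2 0.88) and Rab27a fell (log2 -0.27). In this list 6 were called without the empty vector library of batch 2.

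In the cAMP list 3 of 24 rose (12.5%, beside 4.81% of all genes) and 0 fell: Adcy6 and 2 phosphodiesterases, the enzymes that break cAMP down. Pde8a rose from 5.65 and 2.54 CPM to 19.2 and 15.3 CPM (log2 2.15, SE 0.20, adjusted p = 0.00138) and Pde7b from 1.26 and 0.963 CPM to 4.14 and 1.94 CPM (log2 1.34, adjusted p = 0.0466). The list median was 0.00, with 12 members above 0 and 12 below. Without the empty vector library of batch 2, 5 of the list were called. In purine handling 1 of 23 rose (4.35%, near the 4.81% of all genes) and 3 fell (13.04%, beside 2.07%). Among the fallen was Slc17a9, the vesicular ATP transporter. Slc17a9 went from 25.8 and 22.9 CPM to 15.9 and 17.0 CPM (log2 -0.56, SE 0.09, adjusted p = 0.00673). That count of 4 was 1 without the empty vector library of batch 1 and 2 without the mutant 2 library of batch 2.

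No interferon response gene (25 tested) and no cholesterol synthesis gene (24 tested) was called by edgeR, with 2 and 4 at an unadjusted p under 0.05. DESeq2 called 0 and 2 in these lists. The cholesterol median was -0.06 in batch 1 and 0.40 in batch 2, so the batches differed in sign.

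Stem and lineage markers changed in few members. Of 21 tested stem and progenitor genes, 1 rose (4.76%, beside 4.81% of all genes) and 2 fell (9.52%, beside 2.07%). Procr, the protein C receptor of blood stem cells, rose from 0.188 and 0.161 CPM to 1.97 and 0.916 CPM (log2 2.94, SE 0.33, adjusted p = 0.00171). The stem cell factor Hlf fell from 4.63 and 4.66 CPM to 2.49 and 1.71 CPM (log2 -1.17, SE 0.18, adjusted p = 0.00778), and Mllt3 fell (log2 -0.32). Procr stayed called without any 1 library, and Hlf was lost only without the mutant 2 library of batch 2. Mllt3 and Ccr2 were lost without either mutant 2 library or the empty vector library of batch 1. Ccr2 was also lost without the mutant 3 library of batch 1. Among myeloid lists, the monocyte chemokine receptor Ccr2 fell from 14.7 and 19.9 CPM to 7.25 and 14 CPM (log2 -0.77, adjusted p = 0.0272). It was 1 of 12 tested monocyte genes (8.33%, beside 2.07% of all genes). Of 10 neutrophil genes edgeR called 0, with 2 at an unadjusted p under 0.05. The neutrophil gene Gfi1, a transcription factor, read 24.2 and 26.9 CPM against 5.85 and 12.6 CPM and missed edgeR's threshold (log2 -1.48, adjusted p = 0.0815). DESeq2 called it, and edgeR called 1 neutrophil gene without the mutant 2 library of batch 2.

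Of the other lineages, 1 of 16 erythroid genes (Epor), 1 of 16 megakaryocyte genes (Plek, log2 0.29), 0 of 10 lymphoid genes (2 at an unadjusted p under 0.05) and 1 of 9 stromal genes were called by edgeR. The called ones rose and were 6.25%, 6.25% and 11.1% of the erythroid, megakaryocyte and stromal genes, beside 4.81% of all genes. DESeq2 called 4 erythroid, 1 megakaryocyte, 2 lymphoid and 2 stromal genes. edgeR called 1 lymphoid gene without the empty vector library of batch 2, either mutant 3 library or either full-length library. That stromal gene was the TGF-beta co-receptor Eng, from 12 and 18.8 CPM to 30.3 and 29.1 CPM (log2 0.97, adjusted p = 0.027). In the antigen presentation list 2 of 18 rose (11.1%, beside 4.81% of all genes). They were the class II genes H2-Ab1, from 12 and 9.52 CPM to 28.4 and 27.3 CPM (log2 1.40), and H2-DMa (log2 0.48). The calls of Epor, Plek, Eng, H2-Ab1 and H2-DMa were each lost without the mutant 2 library of batch 2 or either mutant 1 library, among others. Summed marker levels differed widely between lineages. Dendritic and antigen presentation markers summed to 2557 and 2794 TPM with the empty vector and 2284.5 and 2165.6 TPM with mutant 2, megakaryocyte markers to 2189 and 1758 TPM against 2171 and 1543 TPM, and erythroid markers to between 332 and 348 TPM in the 4 libraries. Under 1 TPM on average were 14 of 23, 11 of 20 and 11 of 20 of these markers. In the megakaryocyte sum, Itga2b alone gave 1430 and 1086 TPM with the empty vector and 1384 and 933 TPM with mutant 2. In these 4 libraries Pf4 reached at most 0.828 TPM and Gp9 at most 4.06 TPM. The dendritic markers Zbtb46, Siglech and Clec9a reached at most 0.212, 0.202 and 0.0482 TPM in them. B2m, of the same list, read 569 and 759 CPM with the empty vector and 512 and 572 CPM with mutant 2. Stromal markers summed to between 174 and 227 TPM, with 15 of 19 under 1 TPM. Lymphoid markers summed to 3.50 and 1.99 TPM with the empty vector and 6.29 and 2.47 TPM with mutant 2, with 23 of 24 under 1 TPM on average and 6 at 0 in these 4 libraries. Neutrophil markers summed to 107 and 431 TPM against 51.5 and 433 TPM, with 19 of 23 under 1 TPM and 7 at 0 in these 4 libraries, and monocyte markers to 115 and 104 TPM against 77.3 and 89.6 TPM, with 16 of 24 under 1 TPM. The neutrophil sum was higher in batch 2 in both constructs. In batch 1 it was lower with mutant 2 than with the empty vector, and its part in the results was not tested.

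**Figure D4:**
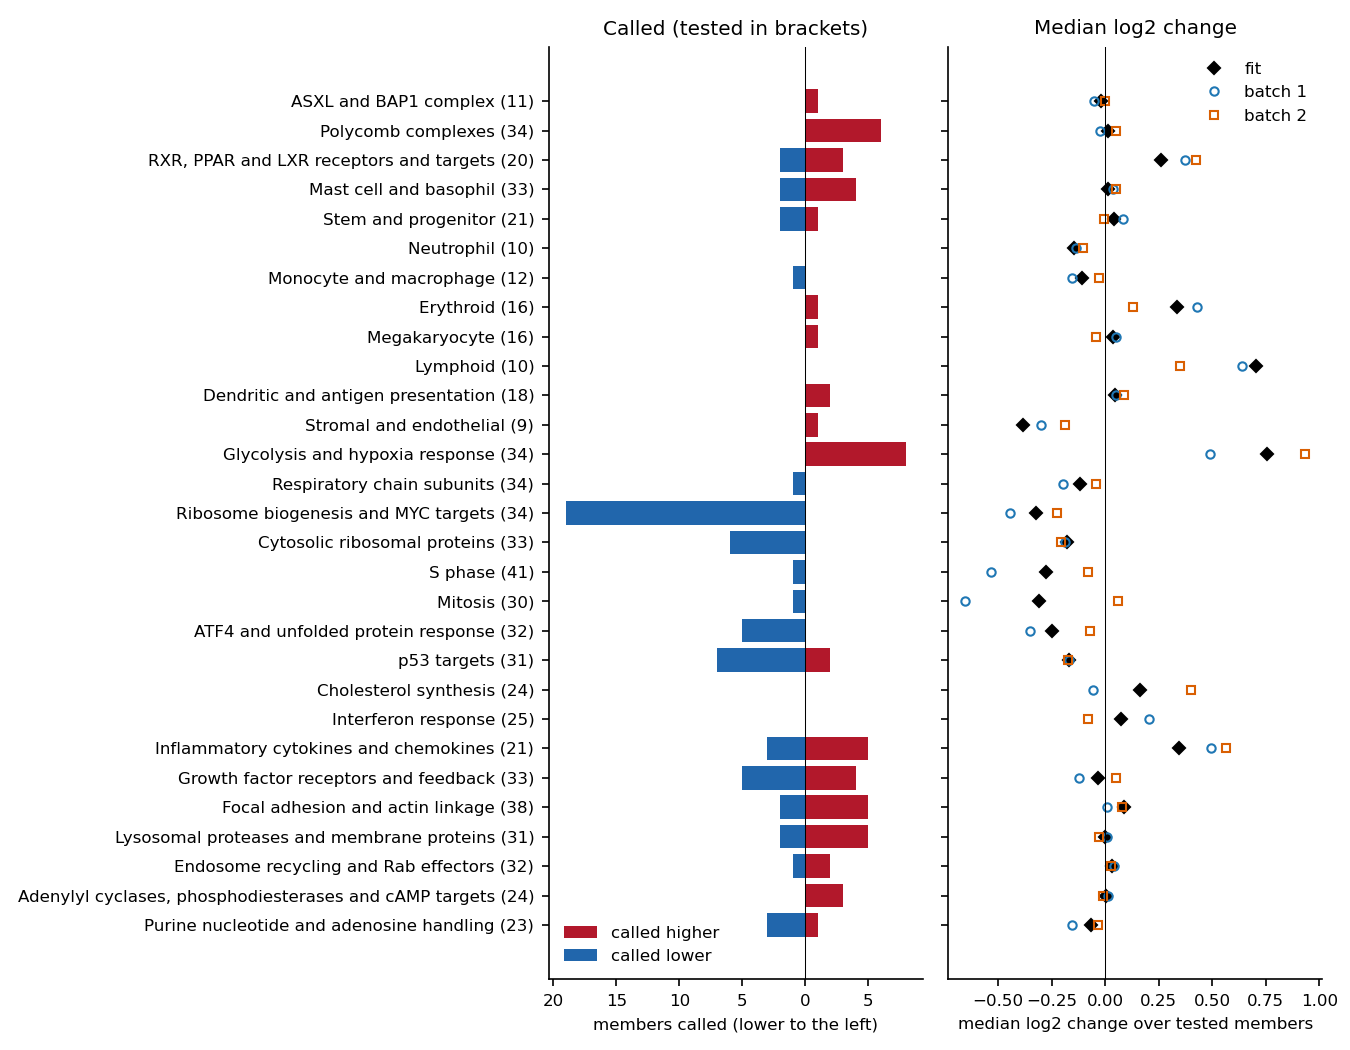
Left: number of members of each of the 29 gene lists called higher (red, right) or lower (blue, left) with mutant 2 against the empty vector, with the number tested in brackets. Right: median log2 change of the tested members in the fit (diamond), in batch 1 (circle) and in batch 2 (square); the glycolysis median is 0.75 and the ribosome biogenesis median -0.32, and the S phase and mitosis medians lie apart between the batches.

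Whether mutant 2 differs from full-length ASXL2 is a separate test, which shares the mutant 2 libraries with the one above. It called 2 of 17810 genes (0.0112%), 1 in each direction (0.00561% each), with 1992 at an unadjusted p under 0.05. Auts2, which acts with a PRC1 complex (chr5:131437333-132543344), read 2.69 and 1.95 CPM with full-length ASXL2 and 8.67 and 9.0 CPM with mutant 2 (log2 1.95, SE 0.17, adjusted p = 0.0146). The empty vector libraries read 6.12 and 5.50 CPM and the 4 libraries of mutants 1 and 3 between 5.58 and 8.25 CPM, so the full-length libraries were the lowest of the 10. Itgb2, the LFA-1 beta chain (chr10:77530252-77565708), read 57.5 and 53.2 CPM with full-length ASXL2 and 33.3 and 30.6 CPM with mutant 2 (log2 -0.79, SE 0.08, adjusted p = 0.0321). For Itgb2, mutant 2 thus lay above the empty vector and below the full-length form. Trp53i11 had the next smallest p and was not called (1.75 and 2.89 CPM with full-length ASXL2, log2 1.20, adjusted p = 0.051).

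Both of these calls were lost without the mutant 3 library of either batch, the full-length library of batch 2 or the batch term, and by the labels. Itgb2 was also lost without either mutant 1 or either mutant 2 library. The count was 325 with DESeq2, 49 or 60 without an empty vector library and 131 without the full-length library of batch 1. For genes with large rises over the empty vector the full-length levels were in part close: Adcy6 read 19.3 and 14.9 CPM with full-length ASXL2, Ctsl 8.07 and 4.10 CPM, Bcar1 5.96 and 3.38 CPM and Cbx7 49.1 and 23.1 CPM. A gene that was not called between the 2 constructs is not shown to be equal in them.

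Against mutants 1 and 3 together, mutant 2 again differed in 2 called genes (0.0112%), both higher, with 1110 at an unadjusted p under 0.05. Rab11fip4, an effector of Rab11 in endosome recycling (chr11:79591212-79698023), read 18.7 and 24.5 CPM with mutant 2, 6.28 and 8.52 CPM with mutant 1 and 10.3 and 10.4 CPM with mutant 3 (log2 1.30, SE 0.11, adjusted p = 0.0147). The empty vector libraries read 18.7 and 26.9 CPM and the full-length libraries 20.6 and 21.7 CPM, so mutants 1 and 3 were the low groups and mutant 2 lay within the range of the controls (log2 -0.07 against the empty vector, adjusted p = 0.80). Id2, an inhibitor of basic helix-loop-helix factors (chr12:25093799-25097140), read 357 and 405 CPM with mutant 2, between 259 and 271 CPM in the 4 libraries of mutants 1 and 3, 316 and 319 CPM with the empty vector and 312 and 308 CPM with full-length ASXL2 (log2 0.51, SE 0.05, adjusted p = 0.0474). Here the mutant 2 libraries were the highest of the 10, and Id2 was also called above the empty vector (log2 0.26, adjusted p = 0.0424). Mab21l1 had the next smallest p and was not called (log2 0.61, adjusted p = 0.0962).

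These 2 genes depend wholly on taking the construct from the name. By the labels the differences had the opposite sign, -0.64 for Rab11fip4 and -0.25 for Id2, and neither was called. The libraries labelled mutant 2 are named mutant 1 or 3, and those named mutant 2 are labelled mutant 1 or 3. The reversal follows from that exchange and tests nothing further. Under the names, Rab11fip4 lost its call without the mutant 1 library of batch 1, the mutant 3 library of batch 2 or either mutant 2 library. Id2 lost it without either mutant 1, either mutant 3 or the batch 2 mutant 2 library.

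**Figure D5:**
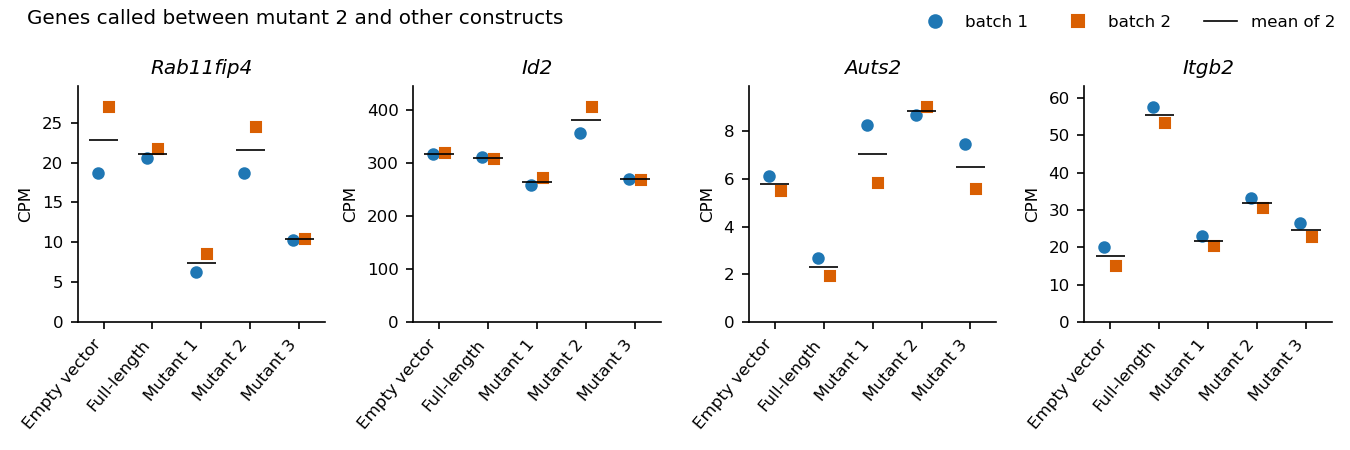
TMM-scaled CPM (y axis, linear, from 0) of the 4 genes called between mutant 2 and full-length ASXL2 or between mutant 2 and the other mutants, by construct (x axis). Circles are batch 1, squares batch 2, lines the mean of 2; Rab11fip4 is low with mutants 1 and 3, Id2 is highest with mutant 2, and Auts2 is lowest and Itgb2 highest with full-length ASXL2.

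Whether the batch difference of mutant 2 departed from that shared by the other constructs, the empty vector among them, was tested as an interaction. The term was mutant 2 in batch 2, added to the fit of all 10 libraries. Whether the change against the empty vector alone differed between the batches was not tested. edgeR called 0 genes, with 963 at an unadjusted p under 0.05 and a lowest adjusted p of 0.0888. No other tool was run on this term, and with 1 library per construct and batch the test draws its spread from the other constructs.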

How the data were processed

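RNA from 10 libraries was quantified by the authors, and per the file headers the deposited tables hold an estimated count and a TPM value for each of 115088 transcripts. The submitters' processing notes name kallisto, DESeq2 and mm10, without versions or roles; in the sources used here trimming, index and strand setting are not given. Kallisto divides reads among similar transcripts, so near-identical copies are uncertain and antisense overlaps cannot be told apart. Estimated counts were summed per gene through GENCODE M21 (114200 transcripts matched, 47311 genes) and rounded.

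Construct and batch came from the deposited names. One edgeR 4.0.16 fit (R 4.3.3; TMM, default expression filter with 10 counts, robust quasi-likelihood, constructs plus batch, residual df 4) covered all 10 libraries and 17810 genes. Benjamini-Hochberg adjusted p-values under 0.05 count as called. CPM values are TMM-scaled, and within-batch changes use log2(CPM + 0.1). The pairing comes from the batch in the names: deviations from the construct means of same-batch libraries, by name, correlated between 0.434 and 0.608 over 10 pairs. Genes were named by a rule: Asxl2 and its partners, the 12 largest called rises and falls with at least 5 mean CPM in the higher group and the same sign in both batches, up to 4 members of each list by p, and the called or 3 smallest-p genes of the other contrasts. Other list members named in the text were chosen after their values were seen, and some named members are not reported here. The comparison and the lists were chosen with earlier results of these data known. On simulated data (17517 genes tested) the share of simulated mutant 2 changes recovered was 53.0% at 1.5-fold, then 59.1% at 2-fold, and reached 81.5% at 4-fold, with 10 false calls. DESeq2 1.42.0 and limma 3.58.1 on log2(TPM + 1) and log2(TPM + 0.1) were alternatives; the pseudocount understates changes of low genes. Promoter windows came from RefSeq tables (GRCm38.p6). Tables and figures used Python 3.11.15.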

Additional observations from a re-analysis of the deposited data

How the results depend on the processing

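Of the 87 named genes called between mutant 2 and the empty vector, none changed sign under any alternative run, and 27 stayed called without any 1 of the 10 libraries. With the pairing by batch given up (no replicate block), 26 genes were called in all and 4 of the 87; with construct and batch from the labels, 49 and 5. DESeq2 kept 86 of the 87 and DESeq2 size factors in edgeR all 87. The total was 351 and 495 with limma on log2(TPM + 1) and log2(TPM + 0.1), the latter moving the median of all genes to -0.10, 425 with only the 4 libraries compared, and 484 without the mutant 1 and 3 libraries whose names and labels disagree. Leaving out single libraries gave 339 to 1875 calls; fewer libraries then inform the spread.

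Against full-length ASXL2 the 2 calls became 325 with DESeq2, 5 with DESeq2 size factors, 66 without a filter, 9 and 28 with the limma fits, and 0 to 131 without single libraries. edgeR called 0 without the block (385 at an unadjusted p under 0.05), by the labels (633), with only the libraries compared (1269) and without the libraries whose names disagree (1421). Against mutants 1 and 3 the 2 calls became 101 with DESeq2, 1 with DESeq2 size factors, 27 without a filter, 10 and 20 with the limma fits, 82 with only the libraries compared, 1 without the libraries whose names disagree, and 0 to 9 without single libraries. edgeR called 0 there without the block (247 unadjusted) and by the labels (161 unadjusted), where Rab11fip4 and Id2 reversed to -0.64 and -0.25. The libraries labelled mutant 2 are not those named mutant 2, so this reversal follows from the regrouping. Why DESeq2 and edgeR differ was not tested. The shallowest library holds 52422686 counts, and each construct has 2 libraries. How far depth or the number of libraries limits the calls was not tested.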

Other observations

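The following gene families were chosen after their values were seen, by symbol, so their counts support nothing beyond these libraries. Tetraspanins, membrane organisers, gave 6 rises and 0 falls of 16 tested with mutant 2 against the empty vector (4.81% of all genes were called higher), with Tspan9 from 2.62 and 3.21 CPM to 10.2 and 8.94 CPM (log2 1.72, adjusted p = 0.00138, edgeR). Of 4 latent TGF-beta binding proteins, Ltbp3 rose from 23.3 and 15.1 CPM to 44.5 and 37.2 CPM (log2 1.12) and Ltbp4 rose too (log2 2.21).

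Small falls were seen in protein-making machinery outside the ribosome lists, beside 2.07% of all genes called lower. Of 12 subunits of the ER signal sequence receptor and the oligosaccharyltransferase, which handle proteins entering the secretory pathway, 4 fell and 0 rose, with Ssr4 from 195 and 220 CPM to 141 and 163 CPM (log2 -0.45, adjusted p = 0.00518) and Stt3b from 444 and 553 CPM to 324 and 428 CPM (log2 -0.41). The chaperonin that folds actin and tubulin had 3 falls of 7, the translation initiation factor 3 complex 3 of 12 and the nucleoporins 2 of 20, each with 0 rises. By gene type, 1166 of 13524 protein-coding genes were called (8.62%) and 13 of 815 lincRNAs (1.60%); lincRNAs are mostly low in counts.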
